A study of Arabidopsis thaliana with 10 samples.

Results

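The genes described here encode the enzymes that turn phenylalanine into flavonols and anthocyanins in Arabidopsis thaliana, together with the transcription factors that switch those enzymes on or off. The set holds 32 genes of the 34290 on the array, a count that includes transcripts without a matched locus. A gene was included when the transcript accession of one of its probes belonged to a fixed list of 32 loci, and its brightest probe was used. Of the 32 genes, 29 were tested, those whose signal the scanner software marked as well above background on 5 or more arrays out of 10. The other 3, BAN, GL3 and MYB11, were too dim to test and are described by their levels.

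Flavonoids are phenolic compounds that absorb ultraviolet light, colour tissues and scavenge reactive oxygen. The pathway starts from general phenylpropanoid metabolism, runs through chalcone synthase to dihydroflavonols, and then divides into flavonols and anthocyanins. Sugars and acyl groups are added before the products are stored in the vacuole. Early enzyme genes are activated by a small group of flavonol-specific MYB factors, while late enzyme genes need a complex of a MYB factor, a bHLH factor and the WD40 protein TTG1. The bZIP factor HY5 links both branches to light.

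Whole seedlings of ecotype Col-0, aged 14 days and grown on sucrose medium, received either a mock treatment or 200 Gy of gamma rays at 50 Gy per h for 4 h, and were sampled 24 h after exposure. Each of 5 experiments on different days used independent plants and gave 1 mock and 1 gamma array, so each group held 5 arrays. The labels name no transgene or mutation. No pigment was measured, and the values below are transcript levels only. In whole seedlings, fewer cells of a type and less RNA per cell cannot be told apart.

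The share of the 43603 probes marked as well above background ran from 71.7% to 76.6% per array, with 0 saturated spots. Both arrays of an experiment shared a slide and a scan, and the mock array always took position 1 and the gamma array position 2, so that slide position and treatment cannot be told apart. The signal at the 75th percentile was 1.33 times higher on the gamma array than on the mock array of experiment 2, and 0.976 to 1.01 times in the others. The irradiation label held in all 5 experiments: SMR7, an inhibitor of cyclin-dependent kinases that DNA damage induces, was higher on the gamma array by a log2 of 5.19 to 6.08. Of 5 green shoot markers and 5 root markers, all were well above background on all 10 arrays, and of 3 seed markers 0 were. On single arrays 2 of the seed markers were well above background. These were CRA1, on both arrays of experiment 2 and on mock array 3, and SESA3, on gamma array 3.

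None of the 29 tested genes passed the threshold for gamma against mock, while 973 of 23665 genes (4.11%) did. The test was limma with the experiment as a block and a Benjamini-Hochberg adjusted p of 0.05, and DFR had the lowest adjusted p of the 29, at 0.181. At an unadjusted p under 0.05 there were 2, DFR and EGL3, or 6.9% of the 29, against 22.0% of all genes tested. The estimate was above 0 for 25 genes and below 0 for 4, where it was above 0 for 10892 and below 0 for 12773 of all genes. The 29 genes had a median log2 change of 0.29 and a range of -0.36 to 0.65. The median over all genes tested was -0.02. A level is given throughout as log2 of the signal relative to the array's own 75th percentile, and a change as gamma minus mock on that log2 scale, so that a change of 1 is a doubling. Levels of different genes come from different probes and are not compared.

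The 95% intervals of the changes were wide, with a median half-width of 0.58, and 27 of 29 contained 0. The highest upper bound was 2.94-fold, for MYB75, and the lowest lower bound was 0.623-fold, for EGL3, leaving aside MYB90, which was not well above background on either array of experiment 2. In 0 of the 29 genes did the mock and gamma arrays separate, where 2.06% of all genes did (0.909% with all gamma arrays above and 1.15% with all below), and 0 had the same sign in all 5 experiments, where 23.8% of all genes did.

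**Figure D1:**
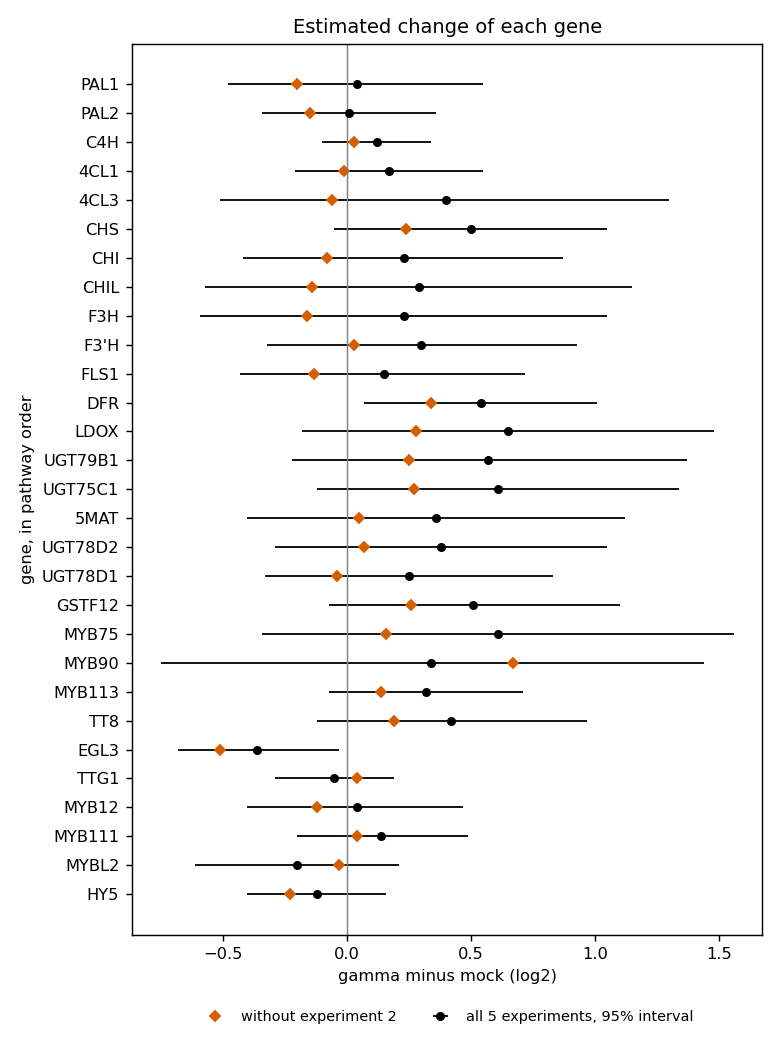
Change of each of the 29 tested genes (horizontal axis, gamma minus mock on the log2 scale) in pathway order. Black points and lines give the limma estimate and 95% interval over all 5 experiments, and orange diamonds the estimate without experiment 2. The median moves from 0.29 to 0.03 when experiment 2 is left out.

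The difference between the 2 arrays of an experiment varied from experiment to experiment. With 1 mock and 1 gamma array in each, an effect of the experiment and variation of single arrays cannot be told apart. The gamma array was the higher one for 17, 26, 22, 3 and 16 of the 29 genes in experiments 1 to 5, where it was for 47.1%, 47.5%, 47.7%, 47.3% and 48.4% of all genes. Of the 19 tested enzyme and transport genes, 19 were higher in experiment 2 and 0 in experiment 4. Over the 29 genes the median differences in experiments 1 to 5 were 0.06, 1.34, 0.17, -0.30 and 0.03. Experiment 2 gave the highest of the 5 differences for 26 genes and experiment 4 the lowest for 22, against 33.0% and 21.6% of all genes. A difference of at least 1 in experiment 2 was found for 18 of 29 genes and for 3.71% of all genes, in a single pair of arrays.

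The median of the 29 genes in experiment 2 was 1.32 to 1.36 with the array median, quantile normalisation or the authors' deposited table in place of the 75th percentile. The SD of the 5 differences had a median of 0.65 over the 29 genes and of 0.19 over all genes tested. With experiment 2 left out, the median change was 0.03, with 16 estimates above 0 and 13 below. In that fit 1 of the 29 genes passed (EGL3), where 1015 of all 23665 genes tested did. Leaving out experiment 4 gave a median of 0.45.

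**Figure D2:**
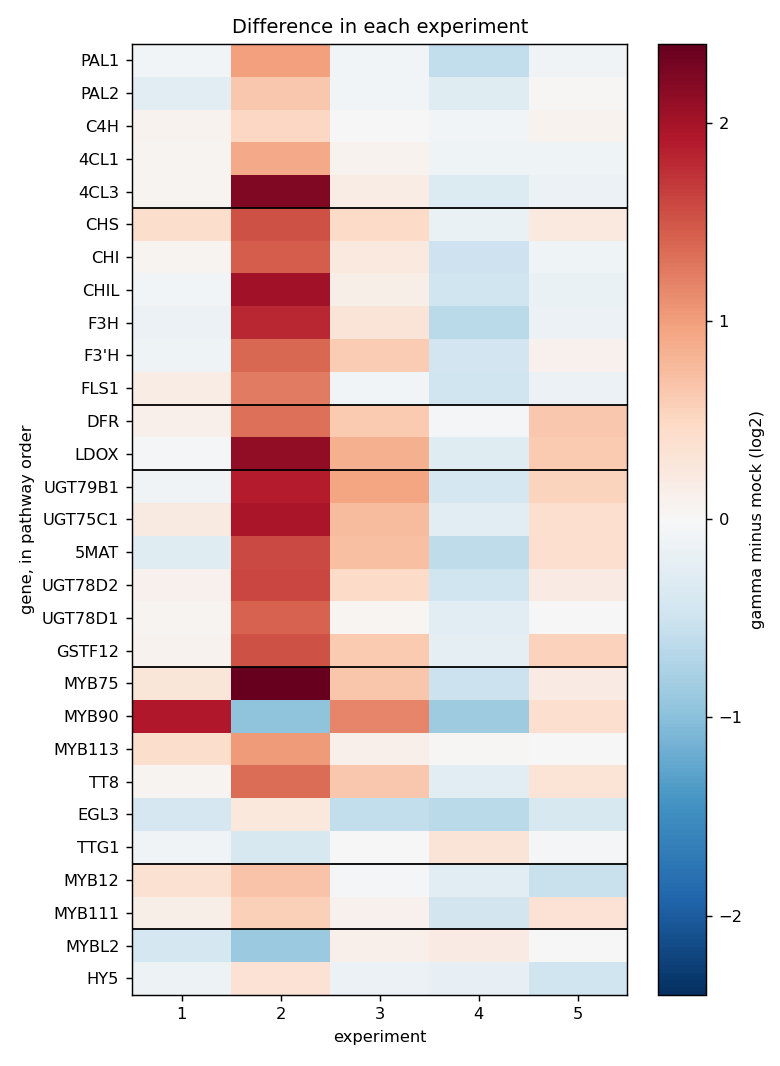
Gamma minus mock on the log2 scale (colour) for the 29 tested genes (rows, in pathway order with lines between roles) in each of the 5 experiments (columns). The column of experiment 2 is red for 26 genes and that of experiment 4 is above 0 for only 3, MYB113, TTG1 and MYBL2.

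The entry enzymes make the precursor of flavonoids, lignin and other phenylpropanoids. PAL1 (AT2G37040), a phenylalanine ammonia-lyase that opens the route, had levels of 2.21, 1.52, 2.39, 3.01 and 2.46 on mock arrays 1 to 5 and of 2.14, 2.50, 2.33, 2.41 and 2.39 on gamma arrays 1 to 5. The gamma arrays lay close together, within the wider mock range, and the mock arrays of experiments 2 and 4 were the lowest and highest of all 10. The change was 0.04 ± 0.21 SE (n = 5 pairs, adjusted p = 0.939 in limma). Its paralogue PAL2 (AT3G53260) gave 0.01 ± 0.14 SE, and 0.65 in experiment 2.

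C4H (AT2G30490), the cinnamate hydroxylase that follows PAL, varied little, from 3.16 to 3.72 on mock arrays and from 3.24 to 3.77 on gamma arrays. Its change was 0.12 ± 0.09 SE. 4CL1 (AT1G51680), a coenzyme A ligase, gave 0.17 ± 0.16 SE. 4CL3 (AT1G65060), the ligase assigned mainly to flavonoid synthesis, had mock levels of -1.31, -2.73, -1.0, -0.42 and -1.60 and gamma levels of -1.25, -0.50, -0.83, -0.75 and -1.75. The mock array of experiment 2 stood below the other 9 arrays, so that the difference was 2.23 there and between -0.32 and 0.17 in the others (change 0.40 ± 0.37 SE, limma adjusted p = 0.572, n = 5 pairs).

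The early flavonoid enzymes build the common dihydroflavonol skeleton and flavonols, and their 6 changes lay between 0.15 and 0.50. Chalcone synthase, CHS (AT5G13930), which commits carbon to the pathway, had mock levels of 1.71, 1.39, 2.33, 2.64 and 1.21. Its gamma levels were 2.13, 2.91, 2.79, 2.48 and 1.45, higher than mock in 4 of 5 experiments with overlapping groups. The change was 0.50 ± 0.23 SE, or 1.41-fold with a 95% interval of 0.963 to 2.07 (n = 5 pairs, limma adjusted p = 0.267), and 0.24 on the log2 scale without experiment 2. CHI (AT3G55120), the isomerase that closes the flavanone ring, gave 0.23 ± 0.27 SE, and the non-catalytic CHI-like protein gene CHIL (AT5G05270), which aids CHS, gave 0.29 ± 0.36 SE. For CHIL the difference was 2.01 in experiment 2 and between -0.47 and 0.14 in the others.

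F3H (AT3G51240), flavanone 3-hydroxylase, had mock levels of 0.65, 0.00, 1.39, 1.81 and 0.10 and gamma levels of 0.51, 1.81, 1.68, 1.17 and -0.04. Its difference was 1.80 in experiment 2 and -0.65 in experiment 4, and its change was 0.23 ± 0.34 SE. The flavonoid 3'-hydroxylase F3'H (AT5G07990), which adds the hydroxyl that distinguishes quercetin from kaempferol, gave 0.30 ± 0.26 SE. FLS1 (AT5G08640), the main flavonol synthase, gave 0.15 ± 0.24 SE, with 1.24 in experiment 2 and -0.48 in experiment 4. In experiment 2 all 6 early enzymes were higher on the gamma array and in experiment 4 all 6 were lower, and without experiment 2 the estimates were -0.16 for F3H, 0.03 for F3'H and -0.13 for FLS1.

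**Figure D3:**
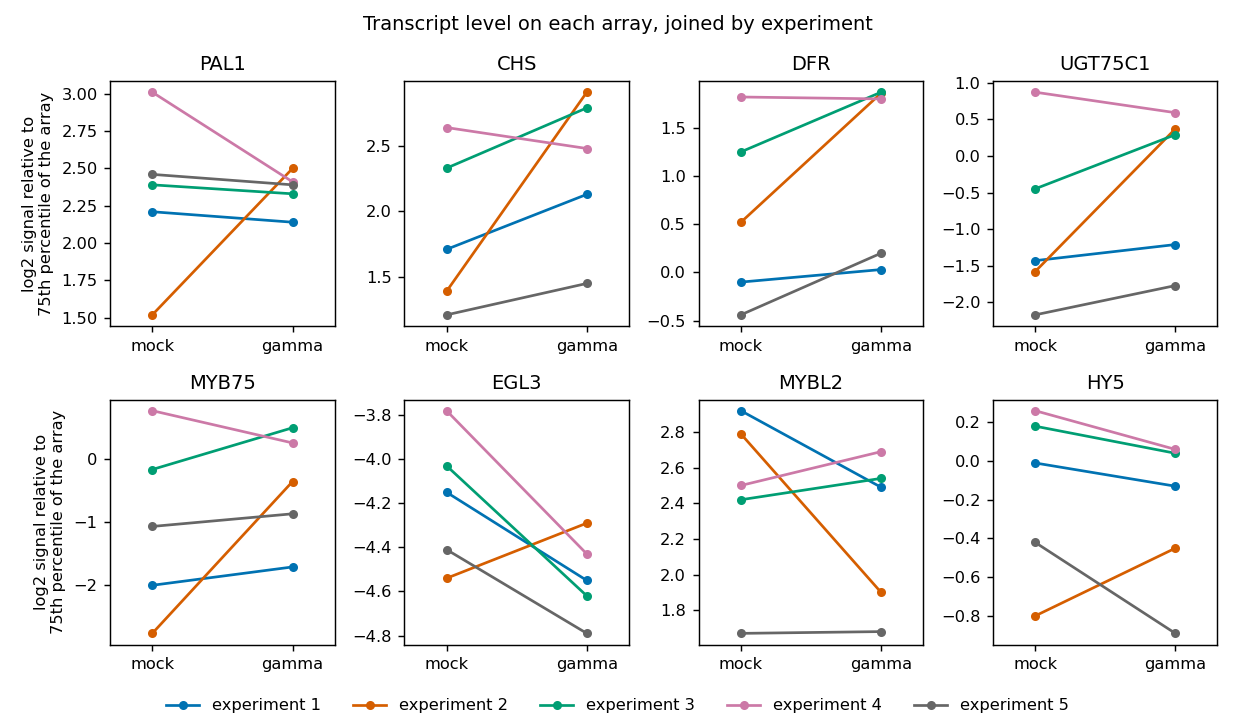
Level of 8 genes on each array (vertical axis, log2 signal relative to the array's 75th percentile, with its own scale per gene), mock to the left and gamma to the right, joined by experiment. In experiment 2 the line climbs for PAL1, CHS, DFR, UGT75C1, MYB75 and, by less, EGL3 and HY5, and drops for MYBL2. In the other experiments all lines drop for PAL1, EGL3 and HY5.

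The late enzymes lead to anthocyanins. Dihydroflavonol reductase, DFR (AT5G42800), had mock levels of -0.10, 0.52, 1.25, 1.82 and -0.44 and gamma levels of 0.03, 1.86, 1.87, 1.80 and 0.20. Experiments 1 and 5 were low on both arrays and experiments 3 and 4 were high on both, so the spread between experiments was wider than the differences within them. DFR had the lowest p of the 29 genes, with a change of 0.54 ± 0.19 SE, or 1.45-fold with an interval of 1.05 to 2.02 (n = 5 pairs, limma unadjusted p = 0.0309, adjusted p = 0.181). Higher gamma values were seen in 4 of 5 experiments, and without experiment 2 the change was 0.34 (adjusted p = 0.204).

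LDOX (AT4G22880), anthocyanidin synthase, had mock levels of -3.42, -2.95, -3.00, -1.07 and -3.06 and gamma levels of -3.46, -0.82, -2.14, -1.37 and -2.44. The mock array of experiment 4 stood above the other mock arrays. Its change of 0.65 ± 0.34 SE was the highest of the 29, with an interval of -0.18 to 1.48 (limma adjusted p = 0.323, n = 5 pairs). Without experiment 2 it was 0.28. BAN (AT1G61720), the anthocyanidin reductase of seed coat proanthocyanidins, was not well above background on any of the 10 arrays. Of 7 further proanthocyanidin genes known from the seed coat, 3 were bright enough to test and 0 passed, with the smallest p for the laccase gene TT10, at -0.55 ± 0.31 SE (limma adjusted p = 0.343).

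Genes for glycosylation, acylation and transport of the products had changes of 0.25 to 0.61. UGT79B1 (AT5G54060), an anthocyanin xylosyltransferase, had mock levels of -1.42, -1.36, -0.17, 1.08 and -2.37 and gamma levels of -1.51, 0.53, 0.77, 0.66 and -1.83. UGT75C1 (AT4G14090), the anthocyanin 5-O-glucosyltransferase, had mock levels of -1.43, -1.58, -0.45, 0.87 and -2.17 and gamma levels of -1.21, 0.37, 0.29, 0.59 and -1.77. Both genes were lowest in experiment 5 and highest in experiment 4 among mock arrays, 3.45 apart on the log2 scale for UGT79B1 and 3.04 for UGT75C1. The changes were 0.57 ± 0.33 SE (limma adjusted p = 0.354) and 0.61 ± 0.30 SE (limma adjusted p = 0.299), each over 5 pairs.

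The malonyltransferase gene 5MAT (AT3G29590) gave 0.36 ± 0.31 SE. The flavonoid 3-O-glucosyltransferase gene UGT78D2 (AT5G17050) gave 0.38 ± 0.28 SE, and the flavonol rhamnosyltransferase gene UGT78D1 (AT1G30530) gave 0.25 ± 0.24 SE. All 3 had their highest difference in experiment 2, between 1.41 and 1.60, and their lowest in experiment 4. GSTF12 (AT5G17220), the glutathione transferase that carries anthocyanins towards the vacuole, had mock levels of 0.24, 0.30, 1.43, 2.31 and -0.28 and gamma levels of 0.33, 1.82, 2.06, 2.09 and 0.27. Its change was 0.51 ± 0.24 SE (limma adjusted p = 0.275, n = 5 pairs). Without experiment 2 the changes were 0.25 for UGT79B1, 0.27 for UGT75C1, 0.05 for 5MAT, 0.07 for UGT78D2, -0.04 for UGT78D1 and 0.26 for GSTF12.

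Several genes had a further probe, a second reading of the same arrays. The second probe of GSTF12 gave 0.41 ± 0.11 SE and differed less between experiments, with 0.73 in experiment 2 where the brightest probe gave 1.52. The second probes gave 0.09 ± 0.19 SE for PAL1, 0.16 ± 0.35 SE for F3H, 0.26 ± 0.27 SE for F3'H and 0.25 ± 0.18 SE for 4CL1. The second probe of 4CL3, well above background on 2 arrays only, gave 1.46 ± 1.07 SE, where the brightest gave 0.40, and the mean of both gave 0.93. With the mean of a gene's probes in place of the brightest, 0 of the 29 genes passed.

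Of the tested regulators, MYB75 and MYB90, MYB factors that activate anthocyanin genes, had the widest mock ranges. MYB75 (AT1G56650), also called PAP1, had mock levels of -2.0, -2.76, -0.17, 0.76 and -1.07 and gamma levels of -1.71, -0.36, 0.49, 0.25 and -0.87. Its mock levels spanned 11.5-fold between experiments 2 and 4, and its difference in experiment 2, 2.40, was the highest of any of the 29 genes in any experiment. Its change was 0.61 ± 0.39 SE, with an interval of -0.34 to 1.56 (n = 5 pairs, limma adjusted p = 0.409), and 0.16 without experiment 2.

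MYB90 (AT1G66390), the close relative known as PAP2, had mock levels of -4.99, -7.24, -5.06, -2.67 and -6.44 and gamma levels of -3.06, -8.19, -3.89, -3.52 and -6.03. Both arrays of experiment 2 were not well above background, so the -0.96 there is no measured difference. In the other experiments the differences were 1.93, 1.17, -0.85 and 0.41, with the highest in experiment 1, where MYB75 gave 0.29. MYB113 (AT1G66370), of the same subgroup, gave 0.32 ± 0.16 SE, and its mock array of experiment 2 was not well above background. Whether probes of these similar genes also detect their relatives was not tested.

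The bHLH partners had estimates of opposite sign. TT8 (AT4G09820) had mock levels of -4.42, -3.93, -3.38, -2.53 and -5.20 and gamma levels of -4.35, -2.59, -2.73, -2.81 and -4.88, and its change was 0.42 ± 0.23 SE (limma adjusted p = 0.328, n = 5 pairs), or 0.19 without experiment 2. EGL3 (AT1G63650), which also acts in trichome and root hair patterning, had mock levels of -4.15, -4.54, -4.03, -3.78 and -4.41 and gamma levels of -4.55, -4.29, -4.62, -4.43 and -4.79. The differences were -0.40, -0.59, -0.65 and -0.38 in experiments 1, 3, 4 and 5, and 0.25 in experiment 2, with overlapping groups. With all experiments the change was -0.36 ± 0.14 SE (n = 5 pairs, limma adjusted p = 0.198). EGL3 passed when experiment 2 was left out, at -0.51 ± 0.07 SE (4 pairs, limma adjusted p = 0.0284). In that fit 1015 of all 23665 genes tested passed. EGL3 did not pass when any other single experiment was left out. Its dimmer probe was well above background on 1 array only.

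GL3 (AT5G41315), the relative of EGL3, was well above background on mock arrays 4 and 5 and gamma array 5 only. Its levels ranged from -7.37 to -5.84 on mock arrays and from -7.48 to -6.81 on gamma arrays. TTG1 (AT5G24520), the WD40 protein of the complex, had the narrowest mock range of the 29 genes, with mock levels of 1.68 to 2.11 and gamma levels of 1.63 to 2.11. Its change was -0.05 ± 0.10 SE, with an interval of -0.29 to 0.19 (n = 5 pairs, limma adjusted p = 0.813).

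Of the flavonol MYB factors, MYB12 (AT2G47460) had mock levels of -1.91, -3.04, -1.48, -1.40 and -2.32 and gamma levels of -1.55, -2.36, -1.53, -1.66 and -2.86, a change of 0.04 ± 0.18 SE. MYB111 (AT5G49330) gave 0.14 ± 0.14 SE. MYB11 (AT3G62610) was well above background on both arrays of experiment 3 and on mock array 4 only. In experiment 2 the differences of MYB12 and MYB111 were 0.68 and 0.57, while those of the 6 early flavonoid genes lay between 1.24 and 2.01.

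MYBL2 (AT1G71030), a small MYB protein that represses the anthocyanin complex, had mock levels of 2.92, 2.79, 2.42, 2.50 and 1.67 and gamma levels of 2.49, 1.90, 2.54, 2.69 and 1.68. Its difference was -0.89 in experiment 2 and 0.19 in experiment 4, the opposite sign to all 19 enzyme and transport genes in both. TTG1, a part of the activating complex, had the same signs as MYBL2, with -0.39 in experiment 2 and 0.30 in experiment 4. Over all experiments MYBL2 gave -0.20 ± 0.17 SE (n = 5 pairs, limma adjusted p = 0.521). HY5 (AT5G11260) had mock levels of -0.01, -0.80, 0.18, 0.26 and -0.42 and gamma levels of -0.13, -0.45, 0.04, 0.06 and -0.89. Its change was -0.12 ± 0.12 SE (limma adjusted p = 0.589, n = 5 pairs), with 0.35 in experiment 2 and -0.47 to -0.12 in the others.

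The level of a gene was next compared between experiments, to set the run of the experiment beside the radiation. A moderated F test in limma, which asks whether the mean of both arrays differs between experiments beyond the disagreement of the paired differences, called 11 of 29 genes (37.9%) and 56.3% of all genes. The 11 were DFR, UGT79B1, UGT75C1, 5MAT, GSTF12, MYB90, MYB113, TT8, MYB12, MYB111 and HY5. No entry or early flavonoid enzyme passed, for instance CHS at an adjusted p of 0.0874. Without experiment 2 the test called 26 of 29 (89.7%, all but PAL1, PAL2 and TTG1) and 65.8% of all genes, and without experiment 5 it called 4 (13.8%) and 23.3%.

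On mock arrays alone, the levels of the 29 genes spanned a median of 1.70 between the lowest and highest experiment, or 3.24-fold, where the median over all genes was 0.72. The range was narrowest for TTG1, at 1.35-fold, and widest for MYB90, at 23.7-fold with its lowest array not well above background. The mock array of experiment 4 was the highest for 24 genes, where 17.6% of all genes were highest there. The mock array of experiment 2 was the lowest for 15 genes, where 25.2% of all genes were lowest there. Relative to each gene's mean over the mock arrays, the median of the 29 genes in experiment 2 was -0.63 on the mock array and 0.65 on the gamma array. For all 29 genes the mock range was wider than the mean change, as for 97.9% of all genes. In 22 genes the mock arrays spanned more than the gamma arrays, whose median range was 1.44. The share of all genes with a wider mock range was not counted, so this count has no reference.

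Other genes of phenylpropanoid and flavonoid metabolism and its control were examined in 6 lists that hold 53 genes, of which 48 were tested. None passed for gamma against mock, with 5 at an unadjusted p under 0.05, where 22.0% of all genes were. Their median change was 0.04. Among 12 further phenylpropanoid and flavonoid enzymes, the smallest p was that of PAL3, another ammonia-lyase gene, at -0.37 ± 0.08 SE (lower in 5 of 5 experiments, limma adjusted p = 0.0585). PAL4 gave -0.32 ± 0.09 SE (adjusted p = 0.0998), while PAL1 and PAL2 gave 0.04 and 0.01. PAL3 passed with normexp background correction (-0.35, adjusted p = 0.0483) and among genes well above background on all arrays (-0.37, adjusted p = 0.0489), and PAL4 passed without experiment 2 (-0.40, adjusted p = 0.0348).

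Of 9 lignin and sinapate enzymes, all had estimates above 0, where 10892 of 23665 genes had. The 9 changes lay between 0.01 and 0.27, and 0 passed. The alcohol dehydrogenase gene CAD5, which acts in lignin synthesis, had the smallest p there, at 0.27 ± 0.08 SE (limma adjusted p = 0.14). Of 9 other MYB, LBD and SPL regulators 8 were tested and 0 passed, with the smallest p for LBD39, a repressor of anthocyanin genes under nitrate supply, at -0.22 ± 0.09 SE (adjusted p = 0.232). Of 12 light signalling genes around HY5, 0 passed. RUP1, a repressor of the ultraviolet-B receptor, had the smallest p, at -0.41 ± 0.11 SE (lower in 5 of 5 experiments, adjusted p = 0.0921).

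In experiment 2, 6 of the 12 light signalling genes were above 0, with a median of 0.24, and 10 of the 12 further enzymes, with a median of 0.40. In experiment 4, 2 of 12 were above 0 in each list. The next examples were chosen after their values were seen, from the high and the low side of both lists. The highest values in experiment 2 were those of ELIP2 in the light signalling list, at 2.16, and of the further enzyme gene SCPL10, at 2.0. In experiment 4 ELIP2 gave -1.67 and SCPL10 gave 0.04. The HY5 homologue HYH gave 1.94 in experiment 2 and -0.31 in experiment 4, and ELIP1, a light-induced chloroplast protein gene, gave 1.24 and -1.04. The flavonol rhamnosyltransferase gene UGT89C1 gave 1.75 and -0.40. RUP1 gave -0.79 in experiment 2, and UGT73C6, another flavonol glycosyltransferase gene, gave -1.90. The 4 F-box genes whose products direct PAL or CHS to degradation had the opposite order: all 4 were lower in experiment 2, with a median of -0.66, and 3 of 4 were higher in experiment 4, with a median of 0.45. Over all experiments 0 of the 4 passed, and KFB01 had the smallest p, at -0.39 ± 0.15 SE (n = 5 pairs, limma adjusted p = 0.204).

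**Figure D4:**
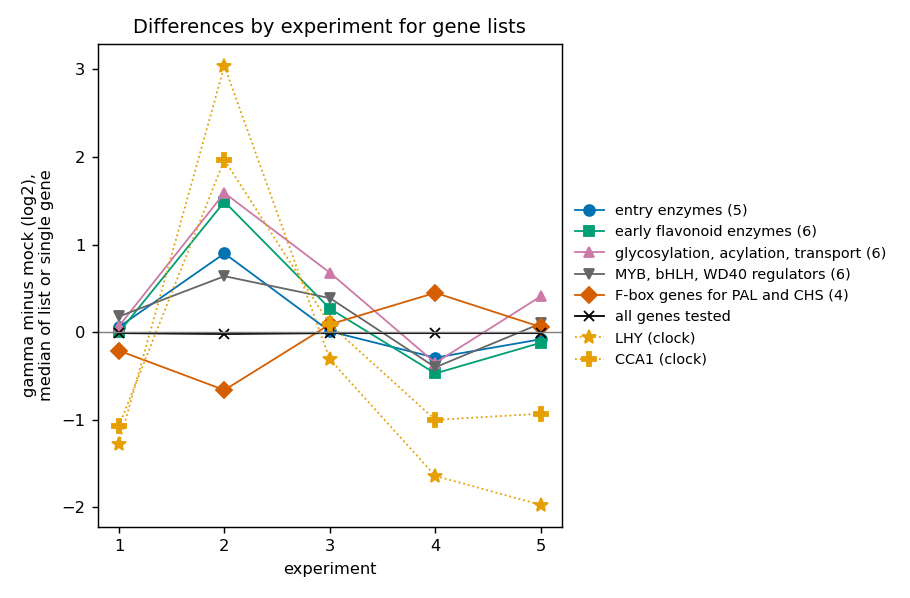
Gamma minus mock on the log2 scale (vertical axis) in each of the 5 experiments (horizontal axis), as the median of a gene list with its number of tested genes, or as a single gene for the clock genes LHY and CCA1. The entry, early, and glycosylation, acylation and transport lists peak in experiment 2, at 0.90 to 1.59 (the late enzymes, not drawn, had 2 tested genes), where the F-box genes are at -0.66 and the median of all genes at -0.02.

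Markers of harvest time and tissue were set beside these differences. The morning clock genes LHY and CCA1 were higher on the gamma array by 3.04 and 1.97 in experiment 2, and their differences were -1.64 and -1.0 in experiment 4. In experiments 1, 3 and 5 LHY gave -1.27, -0.31 and -1.97, and CCA1 gave -1.07, 0.09 and -0.93. The median of the 19 enzyme and transport genes was 0.06, 0.30 and 0.08 there. The 4 other clock genes, TOC1, PRR7, ELF4 and GI, were lower on the gamma array in experiment 2, with differences of -0.52, -0.37, -0.44 and -0.27. In experiment 4 their differences were 0.50, -0.07, 0.58 and 0.37. Over all experiments 0 of the 6 clock genes passed. The summed level of the 5 green shoot markers, in multiples of the array's 75th percentile, was 404 to 674 on mock and 429 to 661 on gamma arrays, and gamma over mock was 0.887 in experiment 2. The summed level of the 5 root markers was 3.63 to 5.61 on mock and 2.77 to 4.22 on gamma arrays, with ratios of 0.960, 1.06, 0.753, 0.718 and 0.713 in experiments 1 to 5. Their part in the differences of the flavonoid genes was not tested.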

How the data were processed

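Total RNA of whole seedlings was hybridised to 10 Agilent arrays with 1 dye (Cy3). The authors deposited linear spot intensity from Agilent Feature Extraction 11.0.1.1, background-subtracted and detrended within each array, per the file headers; the submitters' processing notes name version 9.1. The authors' deposited value table holds a linear ratio per probe, relative to the probe's median for 77.7% of probes (within 1e-04). Its columns followed the centred scanner values with r of at least 0.995 across probes, which sets its scale and direction, while the centring of the remaining probes and the scaling stay unknown. The median of each column was 0.969, 0.963, 0.959, 0.974 and 0.925 for mock and 0.967, 0.960, 0.967, 0.992 and 0.925 for gamma arrays 1 to 5. It served only as an alternative.

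Values were log2 of the processed signal minus the array's 75th percentile, without control and outlier spots. Probes were named by transcript accession with the RefSeq table of TAIR10.1: 34348 matched a locus and 9255 did not. The array headers name TAIR10, so no coordinates are given. Probes without a locus were kept under their transcript name, and each such name was counted as a gene. The brightest probe per gene was used, with at least 5 of 10 arrays well above background (23665 genes, of which 20036 carried a locus name). Gamma was compared with mock with limma 3.58.1 in R 4.3.3, two-sided, with experiment as a block (4 residual and 2.27 prior degrees of freedom). The block comes from the run in the titles. Deviations of paired arrays from their group means correlated at 0.562 to 0.894 across genes. Among the gamma arrays, each mock array correlated best with its partner. The number of arrays limits the precision. The fit was also run on simulated data with independent noise for each gene. Such noise holds no deviation shared across genes, and no result here rests on that run. Alternatives were no block, 2 other scalings, normexp, the deposited table, no filter, a stricter filter, the mean of probes, and leaving out each experiment. All members were named, and in each further list the gene with the smallest p. The members and lists were chosen with earlier results of these data known.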

Additional observations from a re-analysis of the deposited data

Results flagged for a closer look

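For each of the 29 tested genes the 5 mock levels, the 5 gamma levels and the 5 differences were examined for a value far from the others, by Dixon's test at its 95% critical value of 0.71. Of 87 such sets 8 were singled out, where chance gives about 1 in 20, and the sets share arrays. In 7 of the 8 the distant value belonged to experiment 2. The lowest mock level was that of experiment 2 for PAL2, at 2.05, and for 4CL1, at 1.69. The highest difference was that of experiment 2 for C4H, at 0.49, for 4CL1, at 0.90, for 4CL3, at 2.23, for CHIL, at 2.01, and for UGT78D1, at 1.41. The exception was LDOX, whose mock level in experiment 4, -1.07, stood above the other mock arrays.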

How the results depend on the processing

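Under 13 alternatives, 0 of the tested pathway genes passed for gamma against mock, except without experiment 2, where 1 did (EGL3, -0.51). Without experiment 2, 1015 of all 23665 genes tested passed. Of 375 estimates under alternatives, 14 changed sign, none of them past the threshold. Without experiment 2 the changes were -0.20 for PAL1, -0.15 for PAL2, -0.01 for 4CL1, -0.06 for 4CL3, -0.08 for CHI, -0.14 for CHIL, -0.16 for F3H, -0.13 for FLS1, -0.04 for UGT78D1, 0.04 for TTG1 and -0.12 for MYB12. Without experiment 1 they were -0.06 for MYB90 and -0.04 for MYB12, and with quantile normalisation -0.02 for PAL2. Leaving out each experiment in turn moved the estimates between -0.20 and 0.19 for PAL1, -0.15 and 0.08 for PAL2, -0.01 and 0.24 for 4CL1, -0.06 and 0.58 for 4CL3, -0.08 and 0.41 for CHI, -0.14 and 0.48 for CHIL, -0.16 and 0.45 for F3H, -0.13 and 0.30 for FLS1, -0.04 and 0.38 for UGT78D1, -0.06 and 0.67 for MYB90, -0.13 and 0.04 for TTG1, -0.12 and 0.18 for MYB12, and -0.51 and -0.28 for EGL3. The median of the 29 genes lay between 0.03 (without experiment 2) and 0.45 (without experiment 4). The count of all genes called was 973, or 332 without a filter and 141 without the replicate block, which changed no call in the pathway, and 175 to 1015 on leaving out 1 experiment. Other pathway genes called numbered 0, or 1 with normexp (PAL3), 1 with the stricter filter (PAL3), and 0 to 1 on leaving out 1 experiment. Genes whose level differed between experiments numbered 11 of 29, and 4 (without experiment 5) to 26 (without experiment 2) on leaving out 1 experiment. Over all genes that count was 13322, and 5514 to 15574. Calls split into 403 higher and 570 lower, or 516 and 495 with the array median and 518 and 494 with the deposited table. The cause was not tested. Normexp used median spot signals, since no mean signal was at hand. Slide and scan were the same as the experiment and gave no separate block.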
